A study of Mus musculus with 4 samples.

Results

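The integrins and leukocyte adhesion genes examined here were 50 rows of the table, with 49 gene symbols, out of 53379 genes. They were taken by name, as every symbol that begins with *Itga* or *Itgb* apart from *Itgb1bp1*, together with a fixed list of adhesion receptors, their ligands, tetraspanins and proteins that tie integrins to actin. The symbols beginning with *Itga* or *Itgb* gave 31 rows with 30 symbols, since *Itgam* stood under 2 gene identifiers, and the list gave 19 more. *Amica1*, an older symbol of *Jaml*, matched no row. The rule uses names and no measured value, but it was set with earlier results of these data known.

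RNA was sequenced from large intestinal (LI) Treg cells, sorted as CD3+CD4+YFP+ cells from C57BL/6 mice at steady state. The methods give an age of 6 to 12 weeks for mice unless stated otherwise. There were 2 control and 2 KO libraries, each from a pool of 2 to 3 mice. Both groups carried Foxp3-YFPcre, in which *Foxp3* drives Cre and YFP, so deletion was directed to cells that express *Foxp3*. As the labels spell it, the genotype was Setd24flox/+Foxp3-YFPcre in control mice and Setd24flox/floxFoxp3-YFPcre in KO mice. Control Treg cells therefore carried 1 floxed copy of *Setd2*, which encodes an H3K36 methyltransferase, beside 1 intact copy. The paper refers to 1 allele as deficient in control Treg cells, so KO was compared with heterozygous cells and not with wild type. The values were FPKM, fragments scaled to transcript length and library size. Equally ranked values were also nearly equal between libraries, as after quantile normalization, with a spread of at most 0.173% over the 5000 highest ranks. A gene at the same rank in 2 libraries therefore has the same or nearly the same value in both. The sum of FPKM was nearly equal in all 4 libraries, and their depth is unknown. The p-values refer only to variation between pools of mice, and the fit draws each gene's spread toward that of genes at a similar level. In bulk RNA, fewer cells that express a gene cannot be told apart from less RNA of that gene per cell.

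Integrins are receptors made of an α and a β chain that bind the extracellular matrix or ligands on other cells. On leukocytes they are switched on from inside the cell, when talin and kindlin bind the tail of the β chain and connect it to actin. In T cells αLβ2 (LFA-1) binds ICAM proteins, α4β7 binds MAdCAM-1 on gut vessels, αEβ7 (CD103) binds E-cadherin on epithelium, and αvβ8 releases active TGF-β from its latent complex. Tetraspanins gather integrins and other receptors in membrane domains.

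KO LI Treg cells had less mRNA for the integrin chains αv, β8 and αE, the hyaluronan receptor CD44 and the tetraspanin CD81, and more for CD47, the selectin ligand PSGL-1, integrin β1, the tetraspanin CD37 and CD48. Of the 50 rows, 26 had a mean FPKM above 5 in either group and were tested by limma on log2(FPKM + 1), together with all 7639 genes that met the same limit. At an unadjusted p below 0.05, the threshold of the study and the meaning of "called" from here on, 5 members were higher and 5 were lower in KO. This was 19.2% of the members tested in each direction, compared with 8.61% of all genes tested that were higher and 7.57% that were lower. After Benjamini-Hochberg adjustment over all genes, no member passed 0.05 in limma, while 0.589% of all genes tested did. The control and KO values did not overlap for 16 members, or 61.5%, compared with 47.1% of all genes tested. The median log2 fold change of the 26 members was 0.02, and that of all genes tested was 0.00 to 2 decimals, so the members did not move one way as a group.

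**Figure D1:**
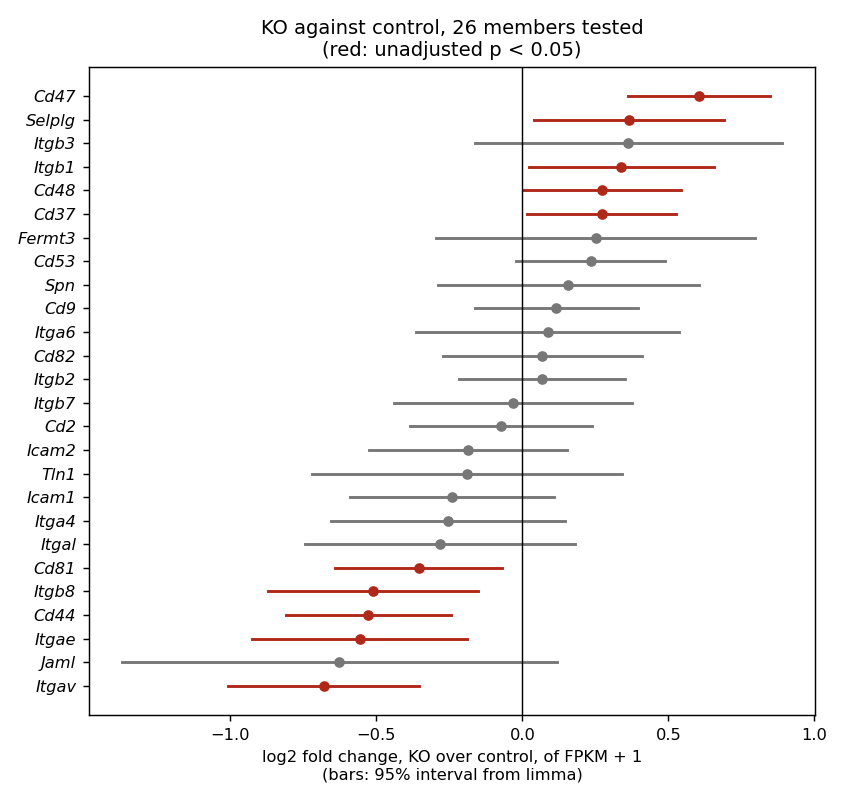
Log2 fold change of each of the 26 members tested, KO over control, of log2(FPKM + 1), with the 95% interval from limma as a bar. The 10 members in red had an unadjusted p below 0.05, from *Itgav* at -0.68 to *Cd47* at 0.61, and the intervals of the others include 0.

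Before these values are given gene by gene, 3 facts about the libraries bear on them. *Setd2* itself had an FPKM of 38.19 and 27.36 in the control libraries and 26.33 and 36.30 in the KO libraries, so the whole-gene value does not tell the genotypes apart, and the names of the groups follow the labels. For KO mice of this line the paper reports loss of Setd2 protein in splenic Treg cells. It also reports much less of the histone mark H3K36me3 in LI Treg cells. *Foxp3*, the defining factor of Treg cells, was listed at only 2.62 to 5.61, whereas *Il2ra* had 152 to 184 and *Ctla4* 1593 to 2310. Markers of other cells were compared by their summed FPKM. The myeloid list (5 markers) gave 219 and 202 in control and 201 and 252 in KO, most of it from *Lyz2*. The platelet list (4) gave 2.40 and 6.45 in control and 4.66 and 12.5 in KO, the B cell list (4) 12.6 to 14.1 and 12.1 to 16.2, and the CD8 T and NK list (4) 2.49 to 3.55 and 2.71 to 2.94. In these 4 lists the sums of the groups overlapped. Within the myeloid list, however, 2 markers were higher in both KO libraries. *Adgre1* had 4.38 and 3.66 in control and 5.60 and 6.24 in KO, and *Cd14* 32.40 and 36.83 against 40.20 and 41.96. The groups of *Lyz2*, *Csf1r* and *Cd68* overlapped. In the platelet list *Gp1bb*, at 0.08 and 0.10 in control, was at 0 in both KO libraries. In the epithelial (5), mast cell (4) and stromal and endothelial (5) lists the groups did not overlap. However, 1 gene carried each sum, namely *Epcam*, *Kit* and *Pecam1*, and the markers *Krt8*, *Fcer1a* and *Col1a1* were at most 0.11, 0.01 and 0.61. The summed epithelial level was 29.0 and 30.9 in control and 20.3 and 21.4 in KO, the mast cell level 16.6 and 18.8 against 12.4 and 12.5, and the stromal level 35.9 and 37.4 against 50.5 and 43.7. Some low markers went against the epithelial, mast cell and stromal sums. *Cdh1* had 0.12 and 0.01 in control and 0.49 and 0.17 in KO. *Mcpt1* was at 0 in both control libraries and 0.11 in both KO libraries. *Cpa3*, never above 1, was also higher in both KO libraries. In the stromal list *Pdgfra* had 0.09 and 0.33 in control and 0.04 and 0.05 in KO. The groups of *Krt8*, *Krt20*, *Vil1*, *Fcer1a*, *Col1a1*, *Col3a1* and *Cdh5* overlapped. The list of 6 T and Treg cell markers summed to 2212 and 2409 in control and to 2756 and 2867 in KO, most of it *Ctla4*. Of these markers only *Ctla4* was higher in both KO libraries. *Il2ra*, at 183.66 and 180.37 in control and 152.14 and 162.77 in KO, was lower in both. So was *Ikzf2*, at 120.75 and 115.57 in control and 84.12 and 98.36 in KO. The groups of *Cd3e*, *Cd4* and *Foxp3* overlapped. The part of any of these lists in the results was not tested.

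The sequences before the transcription start are shown for 3 called members, since *Itgav* and *Cd44* were lower and *Itgb1* was higher in KO. They were the called members whose 250 bases before the RefSeq start (GRCm38.p6) overlap no annotated exon. Of the 49 symbols, 35 had an entry in the RefSeq promoter table, as did 8 of the 10 called members. *Itgae* and *Selplg* had none and could not be assessed. Capitals mark matches on either strand to GGGCGG, known as the GC box, to TATAAA, the core promoter box of that name, or to AGATAA, bound by zinc finger factors of the GATA family. In this order the motifs occur in 32.7%, 12.4% and 9.99% of all 32851 promoter windows of the same length, and no matches overlap in the windows shown.
*Itgav*, chr2:83724147-83724396, plus strand: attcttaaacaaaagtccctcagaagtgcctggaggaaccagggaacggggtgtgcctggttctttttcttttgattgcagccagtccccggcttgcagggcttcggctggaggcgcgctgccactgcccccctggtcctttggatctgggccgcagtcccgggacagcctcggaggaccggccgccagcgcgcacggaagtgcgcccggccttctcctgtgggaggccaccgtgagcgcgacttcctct
*Cd44*, chr2:102901666-102901915, minus strand: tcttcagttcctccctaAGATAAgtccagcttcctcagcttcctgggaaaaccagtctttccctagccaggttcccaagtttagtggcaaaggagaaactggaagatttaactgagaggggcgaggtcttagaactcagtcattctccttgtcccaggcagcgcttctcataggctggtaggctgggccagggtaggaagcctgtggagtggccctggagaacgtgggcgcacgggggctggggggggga
*Itgb1*, chr8:128685404-128685653, plus strand: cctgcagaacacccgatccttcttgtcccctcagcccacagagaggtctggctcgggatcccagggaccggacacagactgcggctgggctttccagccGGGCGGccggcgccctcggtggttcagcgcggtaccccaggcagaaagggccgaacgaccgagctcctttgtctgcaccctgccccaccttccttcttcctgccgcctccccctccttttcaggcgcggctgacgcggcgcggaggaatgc
The window of *Itgav* held none of the 3 motifs, that of *Cd44* held 1 match to AGATAA and that of *Itgb1* held 1 match to GGGCGG. They held 18, 5 and 21 CpG dinucleotides, beside a median of 6 over all windows.

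Among the α chains, *Itgav* changed most. It encodes αv, which pairs with several β chains and binds the RGD sequence in fibronectin, vitronectin and latent TGF-β (ENSMUSG00000027087, chromosome 2 of GRCm38, 83724397 to 83806916). The control libraries had an FPKM of 99.93 and 126.00, compared with 69.64 and 69.67 for KO 1 and KO 2. Both KO libraries were well below both controls and nearly equal. The mean FPKM fell by 38.3%, with a log2 fold change of -0.68 (SE, the standard error, 0.14, adjusted p = 0.0857 in limma). The call held with any one library left out, with log2 fold changes between -0.85 and -0.51. A noncoding gene on the other strand, *Gm13684*, shares exonic sequence with *Itgav* and had an FPKM of 17.36 and 18.54 in control and 13.16 and 14.01 in KO. Whether the libraries keep the strand is not given in the sources used here, so reads in the shared part cannot be assigned with certainty.

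*Itgb8* encodes β8, whose only known partner is αv (chromosome 12, 119158022 to 119238802). It had an FPKM of 17.38 and 17.86 in the control libraries and 11.86 and 12.27 in the KO libraries. Values within each group were close, and the groups were apart. For *Itgb8* the estimate was -0.51 on the log2 scale (SE 0.15, adjusted p = 0.189 in limma). The call was lost without KO 1, while the estimate stayed between -0.53 and -0.49 over the 4 fits that left out a library. Both chains of αvβ8 were thus called lower in KO, and the ratio of *Itgb8* to *Itgav* FPKM was 0.174 and 0.142 in control and 0.170 and 0.176 in KO. The other genes of the latent TGF-β complex were not called. *Lrrc32*, which encodes the anchor protein GARP, had 27.17, 64.00, 37.68 and 20.21 in control 1, control 2, KO 1 and KO 2, with groups that overlapped. *Tgfb1* had 4.73 and 7.05 in control and 4.51 and 5.32 in KO, and *Nrros* 36.07 and 39.67 against 42.69 and 35.85.

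*Itgae* encodes αE, the CD103 chain (chromosome 11, 73090583 to 73147446). Its FPKM was 26.36 and 31.13 in control and 20.61 and 17.80 in KO. The lowest control lay above the highest KO value. The mean fell by 33.2%, with a log2 fold change of -0.56 (SE 0.16, adjusted p = 0.168 in limma). The call was lost without control 2 (-0.44) and without KO 2 (-0.46). Its partner *Itgb7*, the β7 chain shared with α4, had 204.81 and 278.01 in control and 260.39 and 208.97 in KO. These groups overlapped fully, with control 2 and KO 1 high and control 1 and KO 2 low. The log2 fold change of *Itgb7* was -0.03 (95% interval -0.44 to 0.38). The ratio of *Itgb7* to *Itgae* was 7.77 and 8.93 in control and 12.6 and 11.7 in KO.

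*Itga4*, the α4 chain of the gut-homing receptor α4β7 and of α4β1, had an FPKM of 14.90 and 18.18 in control and 12.95 and 14.39 in KO. Both KO values were lower, but the gap was small beside the spread. For *Itga4* the log2 fold change was -0.25 (95% interval -0.65 to 0.15, adjusted p = 0.511 from limma), and ran from -0.39 without control 1 to -0.12 without control 2. *Itga6*, the laminin-binding α6 chain, had 14.69 and 10.71 in control and 13.32 and 13.48 in KO, so its 2 KO values lay between the controls.

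Of the other β chains, *Itgb1* was the one called. It encodes β1, the shared chain of the collagen, laminin and fibronectin receptors (chromosome 8, 128685654 to 128733200), and had 27.02 and 26.70 in control and 32.36 and 36.24 in KO. Both KO libraries were higher. Its log2 fold change was 0.34 (SE 0.14, adjusted p = 0.283 in limma). The call was lost whichever library was left out, with log2 fold changes between 0.26 and 0.42. *Itgb3*, the β3 chain that also pairs with αv, had 7.62 and 11.70 in control and 13.19 and 11.77 in KO. The groups touched almost exactly, and its log2 fold change of 0.36 had a 95% interval from -0.16 to 0.89. It was 0.64 and called without control 2, but 0.08 without control 1. The ratio of *Itgb3* to *Itgav* was 0.0763 and 0.0929 in control and 0.189 and 0.169 in KO.

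The LFA-1 chains were not called. *Itgal*, αL, had an FPKM of 38.43 and 50.69 in control and 42.38 and 30.82 in KO. The log2 fold change of *Itgal* was -0.28 (95% interval -0.74 to 0.18), and ran from -0.50 without KO 1 to -0.058 without KO 2. *Itgb2*, the β2 chain of all leukocyte β2 integrins, had 150.30 and 171.59 in control and 176.64 and 160.31 in KO. For *Itgb2* the log2 fold change was 0.07, with an interval from -0.22 to 0.35. The LFA-1 ligands in the list were *Icam1* and *Icam2*. *Icam1* had 92.47, 112.61, 94.70 and 78.33 in control 1, control 2, KO 1 and KO 2, and its groups overlapped. The log2 fold change of *Icam1* was -0.24 (95% interval -0.59 to 0.11), and with 1 library left out it ran from -0.38, called without control 1, to -0.10 without control 2. *Icam2* had 23.99 and 21.70 in control and 20.51 and 19.37 in KO, where the log2 difference was -0.19 (interval -0.53 to 0.15). *Jaml*, a junctional adhesion molecule of leukocytes, was the lowest member tested. It had 8.49 and 4.75 in control and 4.74 and 2.99 in KO and met the limit of 5 through its control mean alone. Its log2 fold change was -0.63, but the interval ran from -1.37 to 0.12. *Jaml* was called without control 2 (-0.99) and without KO 1 (-0.89) but not without KO 2 (-0.36), and without control 1 it was below the limit and not tested.

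**Figure D2:**
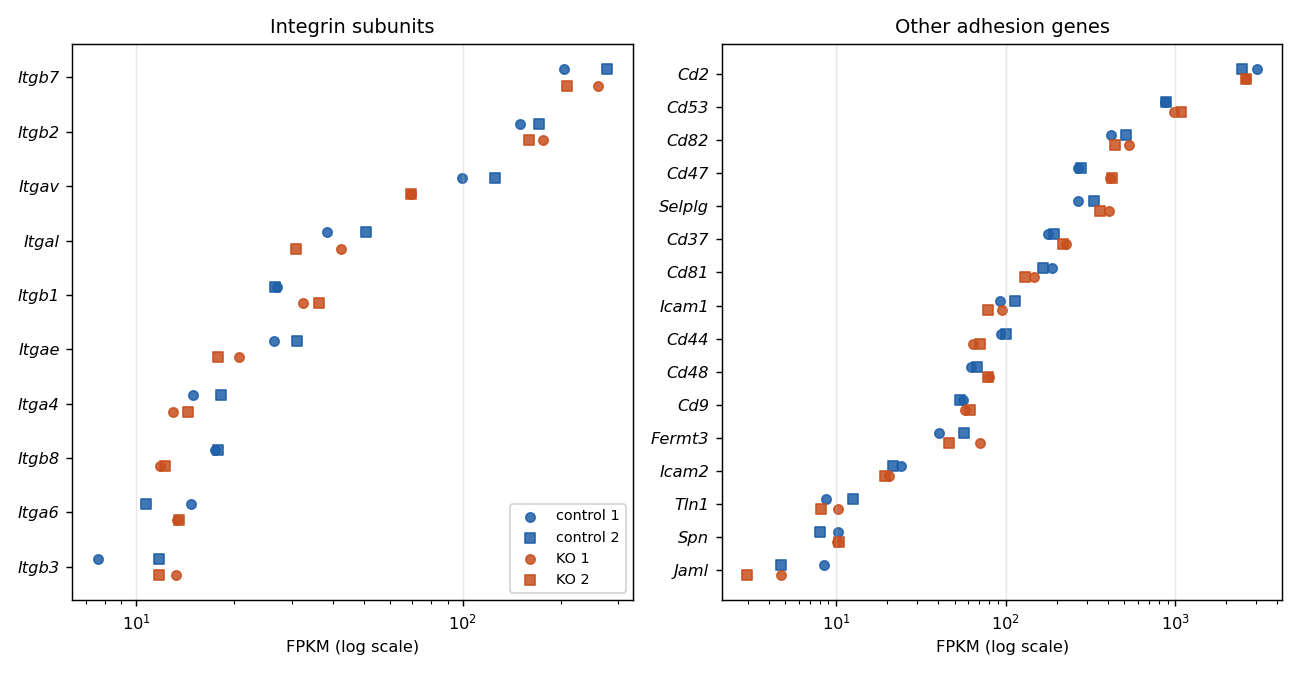
FPKM of the 26 members tested in each of the 4 libraries, on a log scale, with integrin subunits on the left and other adhesion genes on the right, each ordered by mean. *Cd2* was the highest member, at 2460 to 3029, and in *Itgav*, *Itgb8*, *Cd44* and *Cd47* the blue control and orange KO symbols stand apart.

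The proteins that activate integrins were not called. *Fermt3* encodes kindlin-3 of blood cells. It had an FPKM of 40.46 and 56.91 in control and 70.94 and 46.26 in KO, so the 2 KO values lay on either side of control 2. For *Fermt3* the estimate was 0.25 on the log2 scale with an interval from -0.30 to 0.80. *Tln1*, talin-1, had 8.75 and 12.57 in control and 10.20 and 8.09 in KO, giving a log2 fold change of -0.19 (interval -0.72 to 0.34). The exons of *Tln1* overlap those of *Creb3* on the other strand, which was at 52.93 to 68.53 and thus far above it. *Vcl*, vinculin, which links talin to actin, stayed below the limit with 3.07 and 2.56 in control and 1.25 and 2.02 in KO, and it overlaps *Ap3m1* on the other strand, at 15.07 to 23.30.

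*Cd47* had the smallest adjusted p of all members. CD47 is an immunoglobulin-family protein that associates with integrins and signals to phagocytes through SIRPα (chromosome 16, 49800533 to 49915010). The FPKM was 267.10 and 279.13 in control and 409.40 and 422.36 in KO. The 2 groups were far apart beside the difference within each. The mean rose by 52.3%, with a log2 fold change of 0.61 (SE 0.10, adjusted p = 0.0647 in limma). With each library left out it lay between 0.57 and 0.64 on the log2 scale, and every one of these fits called it.

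*Cd44* encodes a receptor for hyaluronan that marks activated T cells (chromosome 2, 102811141 to 102901665). Its FPKM was 94.05 and 100.46 in control and 63.67 and 70.84 in KO. The KO values were below both controls by more than the spread within either group. The mean fell by 30.8%, with a log2 fold change of -0.53 (SE 0.12, adjusted p = 0.109 in limma), and the call held with each library left out, between -0.60 and -0.45. *Spn*, the sialomucin CD43, had 10.20 and 8.05 in control and 10.06 and 10.39 in KO and was not called.

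*Selplg* encodes PSGL-1, the main selectin ligand of leukocytes (chromosome 5, 113818536 to 113832644). It had an FPKM of 265.48 and 330.34 in control and 406.45 and 358.79 in KO. The groups did not overlap, but control 2 and KO 2 were close. Its log2 fold change was 0.37 (SE 0.14, adjusted p = 0.262 in limma), and the call was lost without control 1 (0.21) and without KO 1 (0.28).

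CD2 and CD48 are an immunoglobulin-family receptor and its ligand in mice. *Cd48* had an FPKM of 62.62 and 67.66 in control and 79.32 and 78.38 in KO. The groups were separate, with a log2 fold change of 0.27 (SE 0.12, adjusted p = 0.307 in limma), and no fit without a library called it (0.22 to 0.33). *Cd2* had 3029.05 and 2459.97 in control and 2593.71 in both KO libraries, which lay between the controls. For *Cd2* the log2 fold change was -0.07 (95% interval -0.38 to 0.24).

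Of the 5 tetraspanins in the list, 1 was called lower and 1 higher, beside 7.57% lower and 8.61% higher over all genes tested. *Cd81*, which forms complexes with integrins and other receptors (chromosome 7, 143052739 to 143067934), had 187.86 and 165.84 in control and 145.73 and 130.21 in KO. Its log2 fold change was -0.36 (SE 0.12, adjusted p = 0.226 in limma), but without control 1 or without KO 2 it was -0.27 and not called. *Cd37*, a leukocyte tetraspanin (chromosome 7, 45233632 to 45239115), had 176.38 and 192.11 in control and 226.41 and 218.54 in KO. Both KO values were higher, with a log2 fold change of 0.27 (SE 0.11, adjusted p = 0.285 in limma). With 1 library left out, that call remained only without control 2 (0.33).

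*Cd53*, the most abundant tetraspanin of the list, had 872.34 and 881.01 in control and 979.27 and 1085.91 in KO. Both KO libraries were higher, but it was not called, with a log2 fold change of 0.23 and an interval from -0.02 to 0.49. *Cd82* had 419.98 and 508.25 in control and 536.04 and 437.82 in KO, with control 2 and KO 1 high as in *Itgb7*. Its interval ran from -0.27 to 0.41. *Cd9* had 56.13 and 53.70 in control and 57.70 and 61.51 in KO, giving a log2 fold change of 0.12 (interval -0.16 to 0.40).

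**Figure D3:**
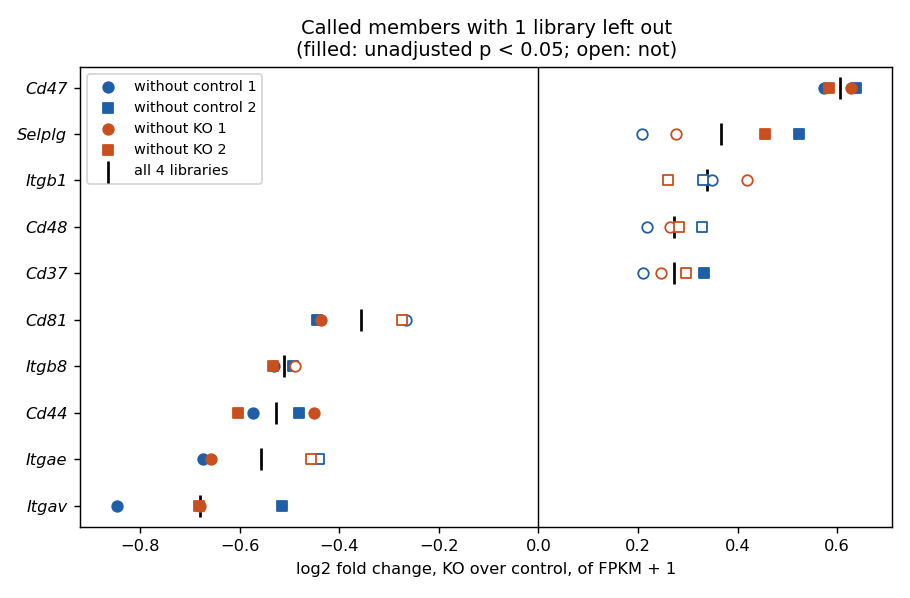
Log2 fold change of the 10 called members with all 4 libraries (black bars) and with each library left out (symbols), filled where the unadjusted p stayed below 0.05. The control and KO values of these members do not overlap, so leaving out a library cannot reverse a sign. *Itgav*, *Cd44* and *Cd47* are filled in all 4 fits, *Itgb1* and *Cd48* in none, and no member changes sign.

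The remaining 24 rows had a mean FPKM of 5 or less in both groups and were not tested. They comprised 21 *Itga* or *Itgb* rows and *Esam*, *Tln2* and *Vcl*. Of these, 16 were below 1 in all 4 libraries, among them the collagen receptor chains *Itga1*, *Itga10* and *Itga11*, and 2 were listed at 0 throughout, namely *Itgb2l* and the second *Itgam* entry. The chains that mark myeloid cells were near 0, with *Itgam* at 0.42 and 0.41 in control and 0.76 and 0.63 in KO and *Itgax* at 0.10 to 0.69 over the 4 libraries. *Itga3*, another laminin-binding chain, had the highest single value of the 24, with 2.58 and 4.14 in control and 2.19 and 1.92 in KO. *Itgb3bp*, which encodes a centromere protein in spite of its symbol and no integrin chain, had 3.68 and 2.02 in control and 3.27 and 3.05 in KO and overlaps *Pgm2* on the other strand, at 26.90 to 37.87. *Itga9* on chromosome 9 was at 0.14 and 0.15 in control and 0.49 and 0.64 in KO. These values are too low to state a fold change of use.

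Further genes of the pathway were taken as 5 lists of 65 genes, of which 48 were tested. Of the 48, none was called higher by limma and 2 were called lower, or 4.17%, among them *Tspan31*. Of all genes tested, 8.61% were called higher and 7.57% lower. In the list of 15 small GTPases and adaptors that switch integrins on, all were tested. None was called in either direction, compared with 16.2% of all genes tested, and the median log2 fold change was -0.07. *Rap1b*, the main GTPase upstream of talin, had 236.96 and 170.26 in control and 195.61 and 221.85 in KO, and *Skap1* had 222.16 and 246.47 against 224.55 and 211.59. Both pairs of groups overlapped.

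Of the 25 adaptors, kinases and actin linkers that bind integrin tails or their complexes, 19 were tested. None was called, compared with 16.2% of all genes tested, and the median was -0.07 (log2). Of 10 tetraspanins outside the members, 6 were tested, and *Tspan31* fell from 67.44 and 67.05 to 24.20 and 27.08, a log2 fold change of -1.36 (adjusted p = 0.0101 from limma). The last exon of *Tspan31* overlaps that of *Cdk4* on the other strand, so reads there are uncertain too. The latent TGF-β list held 3 tested genes out of 5 and no call, too few to compare with the 16.2%.

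**Figure D4:**
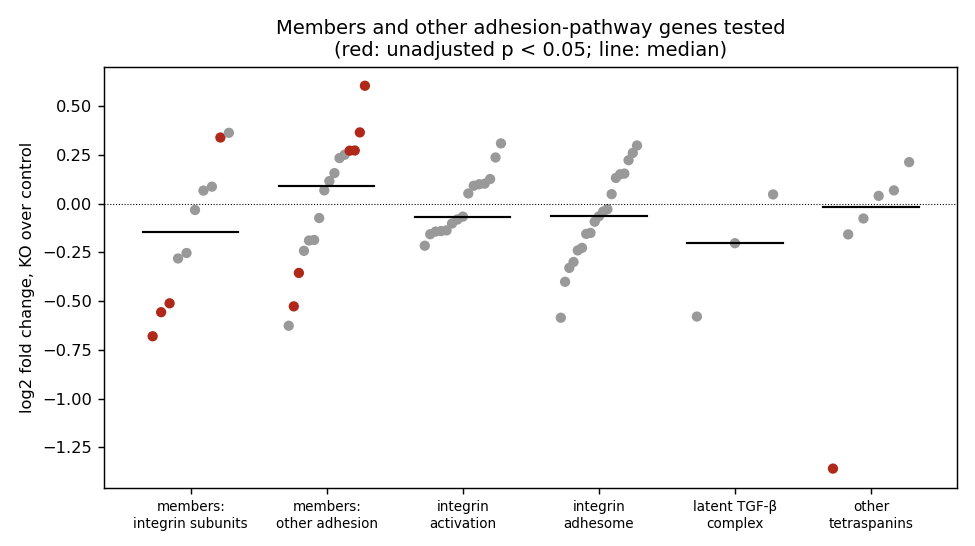
Log2 fold change, KO over control, of each gene tested among the integrin subunits and other members and in 4 lists of further pathway genes, with the median as a line and unadjusted p below 0.05 in red. The called genes shown lie among the members, apart from *Tspan31* at -1.36, while the activation and adhesome lists hold none. Of all genes tested, 16.2% were called in either direction.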

How the data were processed

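Poly(A) RNA of sorted LI Treg cells was sequenced, and the submitters' processing notes name STAR 2.5, RSEM 1.2 and GRCm38. The authors deposited these results as FPKM with 2 decimals, 1 column for each of 4 libraries and 53379 genes. Equally ranked values are nearly equal between columns, as after quantile normalization, and of the 5000 highest ranks the largest relative spread was 0.173%. No source used here names that step. Depth was therefore unknown and no count test or counting interval was used.

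Gene types, coordinates and overlaps came from GENCODE M21 on GRCm38, which held 53274 of the identifiers. limma 3.58.1 in R 4.3.3 (empirical Bayes with trend) was fitted to log2(FPKM + 1) of the 7639 protein-coding genes whose mean FPKM exceeded 5 in control or KO, KO against control with no covariate, with Benjamini-Hochberg adjustment over all of them. For a single gene, 2 against 2 libraries limit an exact permutation test to 0.333. In simulated data for these 7639 genes, 200 were shifted by 1 log2 unit, with normal noise of the spread that limma estimated. The fit called 175 of these 200 at an adjusted p below 0.05. The largest member estimate was -0.68, for *Itgav*, so the simulation does not show how often changes of the members' size are found. Every member above the limit is named with its values, and the others by counts, range and examples. Of the pathway lists, called genes are named by rule, except for some results that are not reported here, and *Rap1b*, *Skap1*, *Lrrc32*, *Tgfb1* and *Nrros* after their values were seen. Members and lists were chosen with earlier results of these data known. Promoter windows came from RefSeq (GRCm38.p6). Python 3.11.15 with pandas 2.3.3, numpy 2.4.6 and matplotlib 3.10.9 handled tables and figures. The alternatives tried were pseudocounts of 0.1 and 5, other filters, all gene types, no trend, median centring, pairings of the libraries, and each library left out.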

Additional observations from a re-analysis of the deposited data

How the results depend on the processing

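All 10 called members kept the sign of their fold change under all 13 alternatives, but most of these could not have reversed it. The control and KO values of these members do not overlap, so leaving out a library or changing the pseudocount cannot reverse a sign. The filters, gene types, trend and pairings left their estimates unchanged. All 10 were called with a pseudocount of 0.1 or 5, with a limit on the mean of all 4 libraries and with median centring, and 9 of 10 without a filter (which lost *Selplg*) and with all gene types (which lost *Cd48*). The fit without a filter also called *Itga9* higher, a member too low to be tested in the main fit. Without a trend in the empirical Bayes step 6 of 10 were kept and 2 rather than 5 members were higher. With the replicate number as a block, 6 of 10 were kept and 1 member rather than 5 was higher, while 5 stayed lower. The deviations of same-numbered libraries correlated at r = -0.304 across genes, which gave no sign that equal numbers belong together. With the pairs crossed (control 1 beside KO 2), chosen after seeing the data, 7 members were higher and 7 lower, 4 members passed an adjusted p of 0.05, and 3 and 6 pathway genes were higher and lower. When single libraries were left out, the members higher ran from 1 to 4, the members lower from 3 to 5, the median log2 fold change of the members from -0.076 to 0.075 (log2), and the pathway genes from 0 to 3 higher and from 2 to 5 lower. Without a filter 1 pathway gene was higher rather than 0. No member reached an adjusted p of 0.05 in any fit but the crossed pairing.

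Leaving out 1 library reversed the sign of 7 members that were not called. Over the fits that left out a library, the log2 fold change ran from -0.028 to 0.16 for *Itgb2*, from -0.25 to 0.19 for *Itgb7*, from -0.052 to 0.55 for *Fermt3*, from -0.12 to 0.30 for *Itga6*, from -0.077 to 0.21 for *Cd82*, from -0.22 to 0.076 for *Cd2* and from -0.43 to 0.050 for *Tln1*. Over all genes, 658 were called higher, 578 lower and 45 at an adjusted p below 0.05. These counts were 1170, 776 and 0 without a filter, 419, 377 and 27 with the block, 419, 435 and 2 without KO 1, 332, 312 and 3 without KO 2, and 1008, 983 and 465 with the crossed pairing, while the adjusted count was 13 with all gene types and 3 without a trend. The cause of these changes was not tested, and the unknown depth limits what can be said of members at low FPKM.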

Other observations

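*Epcam*, *Kit* and *Pecam1*, which were listed as markers of other cells, were measured well above the other markers of their lists. *Epcam* encodes an adhesion protein of epithelium that some T cells also express. It had an FPKM of 28.65 and 30.81 in control and 19.58 and 21.13 in KO. On the log2 scale it differed by -0.53 (SE 0.14, adjusted p = 0.147 in limma). *Kit*, a growth factor receptor, had 16.51 and 18.83 in control and 12.15 and 11.39 in KO, which gave -0.55 on the log2 scale (adjusted p = 0.184). *Pecam1*, an adhesion molecule of endothelium and leukocytes, had 34.65 and 36.26 in control and 49.25 and 42.72 in KO, which gave 0.36 on the log2 scale (SE 0.13, adjusted p = 0.252). All 3 were called at an unadjusted p below 0.05 and none passed 0.05 after adjustment, and for each the control and KO values did not overlap.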
